A study of Mus musculus with 14 samples.

Results

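RAGE, CD14, C1q R1, CD160 and TIM-1 are cell surface receptors that also circulate in serum, and they were 5 of the 111 analytes on a mouse cytokine antibody array, found by the Entrez Gene IDs of Ager (11596), Cd14 (12475), Cd93 (17064), Cd160 (54215) and Havcr1 (171283). The serum came from male C57BL/6JNarl mice, 8 weeks old, all with a full-thickness wound on the back inside an artificial skin ring, all under isoflurane, with tranquilizer and analgesic given as needed. AP mice had a wet dressing at atmospheric pressure, with blood taken at the start (0 h) and after 0.5 h, 2 h and 16 h. NP mice had negative pressure applied to the wound, with blood taken at the same later times. AP 0 h, which the sample labels call the control, is the starting group of both pressures, so that every comparison with 0 h shares the same samples. Each of the 7 groups had 2 samples, and 20 µL portions of serum were combined to 100 µL for each array membrane. The study describes repeated, independent experiments, from which its design note excepts AP 0 h. As no source used here ties each sample of a pair to an experiment or an animal, a p-value covers only the spread within these pairs, which may be technical.

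Many surface receptors are released into the blood when proteases cut them from the membrane or when a form without an anchor is secreted. RAGE binds advanced glycation end products and alarmins such as HMGB1 and S100 proteins, is abundant in lung, and its soluble form can bind the same ligands away from the cell. CD14 holds bacterial lipopolysaccharide for TLR4 on monocytes and macrophages, and its soluble form carries the ligand to cells without CD14 of their own. C1q R1, also called CD93, is a glycoprotein of endothelium and myeloid cells with roles in vessel growth and in the clearance of dying cells. CD160 is a lipid-anchored receptor of natural killer and cytotoxic T cells that binds HVEM. TIM-1, also called KIM-1, is a costimulatory receptor of T cells and appears on injured kidney tubule cells, which shed it. Which form of each receptor the array antibodies captured is not given in the sources used here, and the number of cells that released it and the amount released per cell cannot be told apart in serum.

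Each value is a spot intensity that the authors multiplied by a factor (0.859 to 1) that matched the Reference Spots, the positive controls of the membrane, between both samples of a group but not between groups. These spots averaged a raw intensity of 165561 at AP 0 h and were 3.78 to 9.18 times dimmer in the later groups. Every value was therefore also taken as a percent of the mean Reference Spots of its own sample, the reference scale. Between groups both scales differ by an amount that is the same for every analyte. For NP minus AP the normalized less the reference log2 difference was 0.44 at 0.5 h, -0.53 at 2 h and -0.50 at 16 h, so the order of the analytes stays the same. Groups were compared with limma over all 111 analytes and 14 samples, and an analyte was called at a Benjamini-Hochberg adjusted p under 0.05. A sample measured an analyte where its raw intensity exceeded the Negative Control spot of that membrane. The raw Negative Control was 203 and 296 at AP 16 h and 21 to 93 in the other samples. All 7 plasma proteins taken as a check of the serum label, among them adiponectin and fetuin A, exceeded it in both samples of every group.

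Of the 70 receptor values, 60 exceeded the Negative Control. C1q R1 did so in 14 of 14 samples, RAGE and TIM-1 in 12, and CD14 and CD160 in 11. At AP 16 h RAGE, CD14, CD160 and TIM-1 exceeded it in neither sample, and at NP 2 h CD14 and CD160 exceeded it in 1 of 2. The samples of AP 16 h thus give only an upper bound for these 4 receptors, on membranes whose Negative Control was brighter than in any other group. A fold against such values is given as "at least", setting the bright group against the lowest signal that any analyte above the control gave on each dim membrane, or against the receptor's own signal where that was higher.

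RAGE rose and fell in both treatments, but at different times. In AP its normalized intensity was 1000 and 1005 at 0 h, 537 and 414 at 0.5 h, 8237 and 7917 at 2 h, then 170 and 166 at 16 h, where neither sample exceeded the control. In NP it was 6543 and 6846 at 0.5 h, 70.5 and 200 at 2 h, then 294 and 149 at 16 h. The high groups were thus NP 0.5 h and AP 2 h, whose samples did not overlap with each other or with any other group. Their means were 6695 ± 214 and 8077 ± 226 (SD, n = 2), or 15.4% ± 0.492 and 23.9% ± 0.668 of the Reference Spots. Below them, on the normalized scale, came AP 0 h (1002 ± 3.51), AP 0.5 h (475 ± 86.7), NP 16 h (221 ± 103), AP 16 h (168 ± 2.51, not above the control) and NP 2 h (135 ± 91.6). The samples of NP 16 h and NP 2 h overlapped, and on the reference scale AP 0 h (0.615%) lay within the range of NP 2 h. RAGE at NP 2 h was the receptor value on which both samples of a group differed most, by 95.8% of their mean, with 1.14 and 8.33 times the Negative Control.

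**Figure D1:**
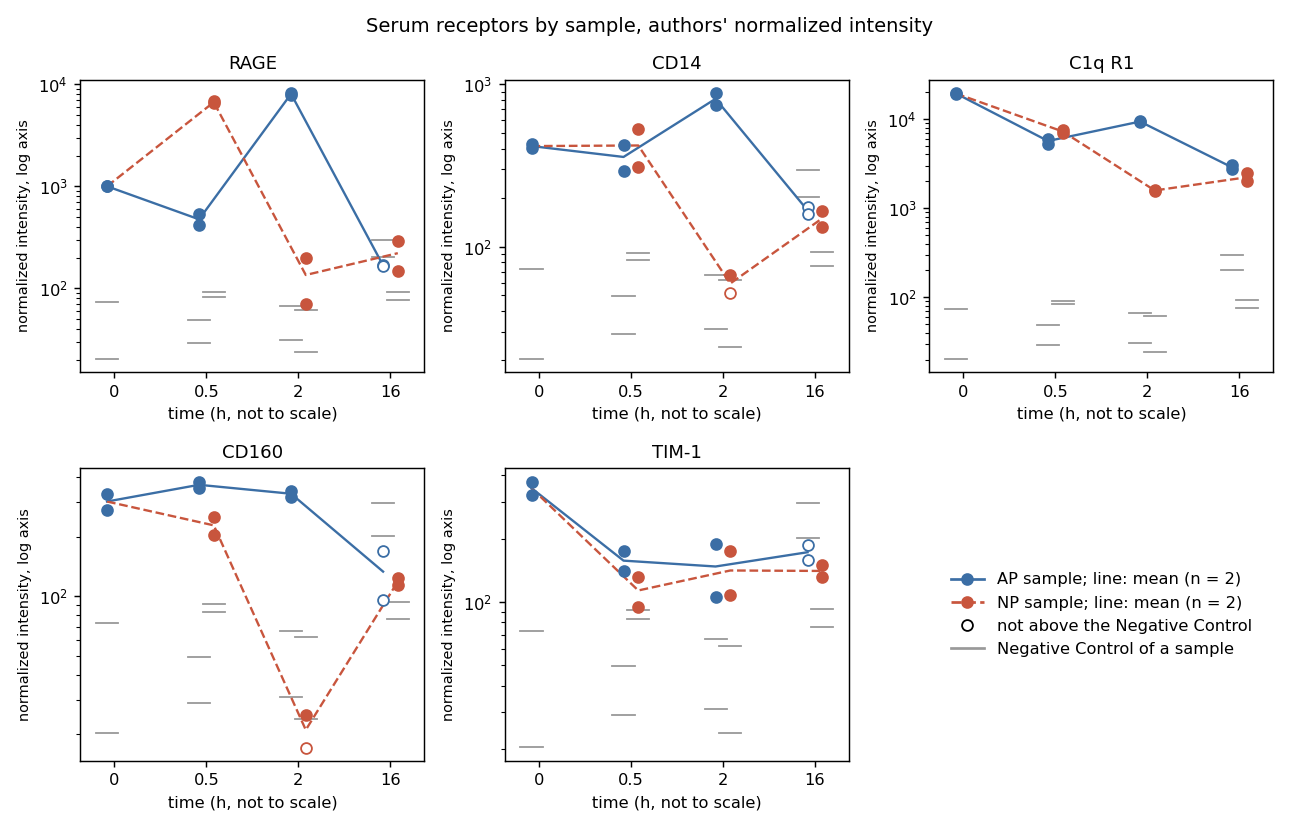
Normalized intensity (log axis) of each receptor in every sample, against time in hours (not to scale), with lines through the means of 2 samples, open circles for samples not above the Negative Control, and grey bars for the Negative Control of each sample. RAGE was high at NP 0.5 h (6543 and 6846) and at AP 2 h (8237 and 7917), while TIM-1 had no such peak.

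CD14 had its highest level at AP 2 h and its lowest at NP 2 h. In AP the values were 427 and 405 at 0 h, 421 and 292 at 0.5 h, 883 and 744 at 2 h, then 176 and 158 at 16 h, the last not above the control. In NP they were 531 and 308 at 0.5 h, 51.5 and 67 at 2 h, then 166 and 133 at 16 h. The samples of AP 2 h stood above all others, those of NP 0.5 h, AP 0 h and AP 0.5 h overlapped with one another, and those of NP 2 h stood below all others. On the reference scale NP 2 h overlapped with AP 0 h (0.255%). The means ran from 59.3 ± 10.9 at NP 2 h to 814 ± 98.4 at AP 2 h (SD, n = 2), or from 0.252% to 2.40% of the Reference Spots.

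C1q R1 stood farthest above the Negative Control, at 9.19 to 934 times that level. Its values in AP were 19508 and 19035 at 0 h, 5279.9 and 6020 at 0.5 h, 9543 and 9126 at 2 h, then 3001 and 2720 at 16 h. In NP they were 7547 and 6893 at 0.5 h, 1552 and 1597 at 2 h, then 2443 and 1986 at 16 h. No 2 groups overlapped on this scale, from AP 0 h at the top to NP 2 h at the bottom. As a percent of the Reference Spots the order changed. AP 2 h was then highest (27.6% ± 0.870) and NP 2 h lowest (6.70% ± 0.137), AP 0.5 h and NP 0.5 h overlapped (17.6% ± 1.63 and 16.6% ± 1.06), and AP 0 h (11.8% ± 0.205), AP 16 h (11.3% ± 0.785) and NP 16 h (12.3% ± 1.80) overlapped with one another (SD, n = 2).

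CD160 was at most 13.3 times the Negative Control and fell to its level at NP 2 h. In AP it gave 330 and 272 at 0 h, 379 and 352 at 0.5 h, 319 and 340 at 2 h, then 96.2 and 170 at 16 h, not above the control. In NP it gave 252 and 204 at 0.5 h, 17.2 and 25 at 2 h, then 114 and 123 at 16 h. The samples of AP 0, 0.5 and 2 h, of which those of 0 and 2 h overlapped, lay above every NP sample, and the NP 2 h samples, at 0.278 and 1.04 times the Negative Control, lay below every other. Group means ran from 0.0898% to 1.14% of the Reference Spots, and on that scale AP 0 h (0.184%) lay below every group but NP 2 h.

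TIM-1, the marker of kidney tubule injury, varied least between groups of the 5 receptors, its highest mean being 3.06 times its lowest on the normalized and 3.67 times on the reference scale, against 59.7 and 41.4 times for RAGE. It gave 322 and 372 at AP 0 h, 174 and 140 at AP 0.5 h, 189 and 106 at AP 2 h, then 158 and 187 at AP 16 h, not above the control. In NP it gave 132 and 95 at 0.5 h, 108 and 174 at 2 h, then 150 and 131 at 16 h. AP 0 h stood above all later groups on the normalized scale, whereas on the reference scale it had the lowest mean (0.213%). On the normalized scale the samples of NP 0.5 h lay below those of AP 0.5 h, as was so for 15.3% of all analytes. Those of AP 2 h and NP 2 h overlapped with every other later group. TIM-1 lay near the Negative Control, at 1.44 and 1.14 times its level at NP 0.5 h and 1.61 and 1.71 times at NP 16 h. It was at 2.83 and 3.42 times at AP 2 h and 1.75 and 7.25 times at NP 2 h. Lower values could thus be measured only within a narrow range.

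NP and AP were compared at each time, the question for which the array was run. At 0.5 h RAGE was higher in NP, by a log2 difference of 3.83 (standard error 0.39, limma adjusted p = 1.2e-06), which is 14.2-fold. It held the highest difference of the 111 analytes, 3.41 more than the median analyte (0.42). Relative to the Reference Spots the difference was 3.39 (adjusted p = 4.9e-06), and with the membranes scaled by a plane through their Reference Spots it was 2.38 (adjusted p = 6.0e-05). C1q R1 was the other receptor called higher, by 0.36 (standard error 0.11, adjusted p = 0.012), less than the median analyte, and its difference turned to -0.08 on the reference scale (adjusted p = 0.63) and to -0.64 with the samples scaled to equal medians, where it was called lower (adjusted p = 0.021). Called higher were thus 2 of 5 receptors on the normalized scale, where 44.1% of all analytes were higher and 5.41% lower, and 1 of 5 on the reference scale, where 12.6% were higher and 21.6% lower.

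CD14 differed between NP and AP at 0.5 h by 0.21 (95% interval -0.53 to 0.95, adjusted p = 0.62), and its samples overlapped. CD160 was lower in both NP samples than in both AP samples, by -0.69 (standard error 0.35, adjusted p = 0.12), and this passed the test on the reference scale (-1.12, adjusted p = 0.022). That call was lost without AP 0.5 h replicate 1 or 2 or NP 0.5 h replicate 2 (adjusted p = 0.11, 0.082 and 0.14). TIM-1 was also lower in both NP samples, which were at 1.44 and 1.14 times the Negative Control. Its limma difference was -0.48 (standard error 0.37, adjusted p = 0.31), and -0.92 on the reference scale (adjusted p = 0.075). It passed with equal medians (-1.48, adjusted p = 0.0059) and with the plane (-1.99, adjusted p = 0.00030). Both NP samples lay below both AP samples for 15.3% of all analytes on the normalized and 36.0% on the reference scale. The platelet-released proteins PDGF-BB, P-Selectin, EGF and Serpin E1 moved at the same time. Of these 4, 3 were higher in NP and Serpin E1 was lower, beside the 44.1% and 5.41% of all analytes, and on the reference scale 1 was higher and 1 lower, beside 12.6% and 21.6%. Their median difference was 0.69 (0.25 on the reference scale), and their summed level was 34.8 to 37.4% of the Reference Spots in the AP samples and 45.29 to 45.32% in the NP samples. Their part in the RAGE difference was not tested.

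**Figure D2:**
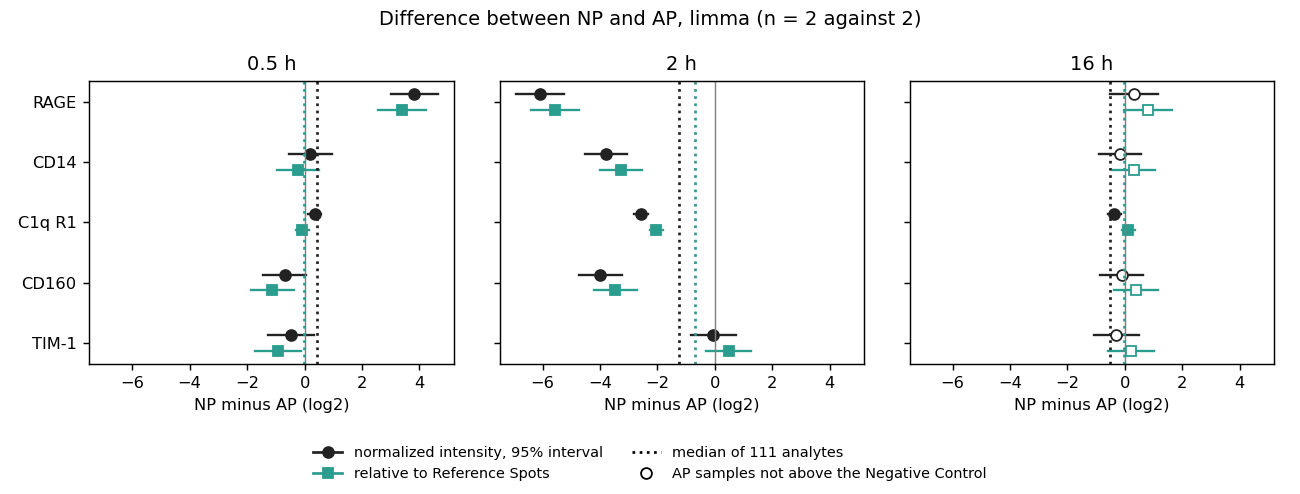
Difference between NP and AP (log2) for each receptor at 0.5, 2 and 16 h with its 95% interval from limma, on the normalized scale (circles) and relative to the Reference Spots (squares). Dotted lines are the medians of the 111 analytes and open symbols stand for AP samples not above the Negative Control. CD14 and CD160 at 2 h rest on NP pairs with 1 of 2 samples above the control. RAGE passed from 3.83 at 0.5 h to -6.09 at 2 h, with NP 2 h samples at 1.14 and 8.33 times the control.

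At 2 h RAGE, CD14, C1q R1 and CD160 were all called lower in NP, while TIM-1, which lay near the Negative Control, was not called. The RAGE difference was -6.09 (standard error 0.39, adjusted p = 5.9e-10), or 68.0-fold, the lowest of the 111 analytes, whose median was -1.23, and -4.86 relative to that median. As the NP samples lay far apart, the difference was -5.34 (40.4-fold, adjusted p = 3.3e-09) without NP 2 h replicate 1, the one at 1.14 times the Negative Control, and -6.84 (115-fold, adjusted p = 2.2e-10) without NP 2 h replicate 2. CD160, at -3.99 (standard error 0.35, adjusted p = 3.0e-08), and CD14, at -3.79 (standard error 0.35, adjusted p = 4.5e-08), held the third and the fourth lowest places, but their sizes rest in part on NP values at the level of the Negative Control (0.278 and 1.04 times for CD160, 0.833 and 2.79 times for CD14). Taken as bounds, CD160 was at least 8.25-fold lower in NP (at least 5.73-fold on the reference scale) and CD14 at least 12.4-fold (at least 8.62-fold). C1q R1 was lower by a difference of -2.57 (standard error 0.11, adjusted p = 9.6e-12), in 18th place from the lowest. Relative to the Reference Spots the differences were -5.56, -3.46, -3.26 and -2.04, with adjusted p of 5.8e-09, 3.1e-07, 5.1e-07 and 5.7e-10. Thus 4 of 5 receptors were called lower on both scales, on which 86.5% and 63.1% of all analytes were lower and 3.6% and 9.91% higher. The count is near this background. Relative to the median analyte, C1q R1 stood at -1.34.

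TIM-1 differed at 2 h by -0.04 (95% interval -0.84 to 0.75, adjusted p = 0.92), with overlapping samples, and by 0.48 on the reference scale (adjusted p = 0.25). It stood 1.19 above the median analyte and in the 7th place from the highest, and with the samples scaled to equal medians it was called higher in NP (1.83, adjusted p = 0.00042). TIM-1 was only 2.83 and 3.42 times the Negative Control at AP 2 h and 1.75 and 7.25 times at NP 2 h. A fall as large as that of RAGE could thus not have been measured for it. Under the 17 alternatives run for RAGE, CD14 and C1q R1 and the 16 for CD160, all 4 stayed lower in NP at 2 h and past the threshold, with differences from -7.69 to -4.21 for RAGE, from -5.55 to -1.47 for CD14, from -2.60 to -0.69 for C1q R1 and from -6.18 to -1.38 for CD160. The 7 plasma proteins moved as well, with 6 lower and 1 higher in NP (5 and 1 on the reference scale), a median of -1.20 (-0.67 on the reference scale) and a summed level of 252 to 257% of the Reference Spots in AP and 150 to 165% in NP. Their part in the receptor differences was not tested.

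**Figure D3:**
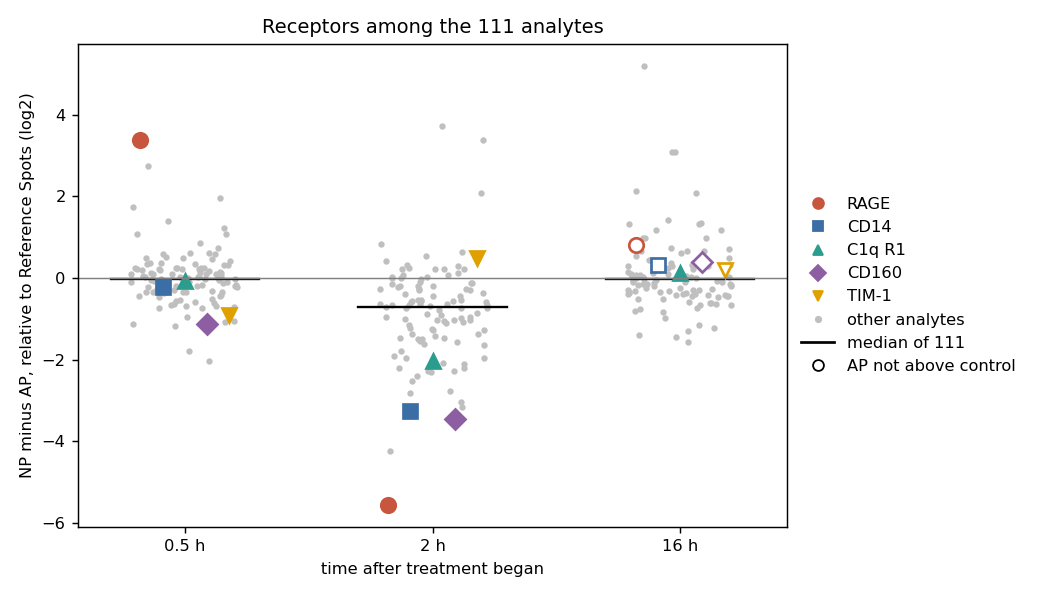
Difference between NP and AP (log2, relative to the Reference Spots) of the 5 receptors and the other analytes at 0.5, 2 and 16 h, with points spread sideways only to separate them and black lines at the medians of the 111 analytes. RAGE had the highest difference at 0.5 h (3.39) and the lowest at 2 h (-5.56), and TIM-1 lay above the median at 2 h (0.48 against -0.70).

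At 16 h only C1q R1 was measured in both treatments. It was lower in NP by a difference of -0.38 (standard error 0.11, adjusted p = 0.0072), less than the -0.52 of the median analyte, and on the reference scale the difference turned to 0.12 (adjusted p = 0.41). On the normalized scale this was 1 of 5 receptors called lower, where 52.3% of the analytes were lower and 8.11% higher, and on the reference scale it was 0 of 5, where 17.1% were lower and 20.7% higher. For RAGE, CD14, CD160 and TIM-1, 0 of 4 were called and 0 of 4 had an unadjusted p under 0.05 with limma on either scale or with the methods' t-test. As their AP samples did not exceed the Negative Control, no fold is given.

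The change of the NP minus AP difference was tested directly. From 0.5 to 2 h the log2 change was -9.92 for RAGE (standard error 0.55, adjusted p = 3.1e-10), -3.99 for CD14 (standard error 0.49, adjusted p = 1.5e-06), -3.30 for CD160 (standard error 0.50, adjusted p = 1.5e-05) and -2.92 for C1q R1 (standard error 0.15, adjusted p = 1.6e-10), where CD14 and CD160 again rest on NP 2 h. These are 4 of 5 receptors with a lower difference, against 84.7% of all analytes on the normalized scale and 57.7% on the reference scale, where the same 4 were called. The RAGE change was the lowest of the 111, and it rests on NP 2 h samples at 1.14 and 8.33 times the Negative Control. TIM-1 changed by 0.44 (standard error 0.53, adjusted p = 0.43) and, on the reference scale, rose by 1.40 (adjusted p = 0.027), while 3.6% and 13.5% of all analytes rose on these scales. From 2 to 16 h the change of C1q R1 was 2.19 (standard error 0.15, adjusted p = 5.1e-09), where 51.4% of all analytes rose (50.5% on the reference scale), and for the other 4 it would rest on AP samples below the control.

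Within AP, RAGE rose from 0.5 to 2 h by 4.10 (standard error 0.39, adjusted p = 2.4e-07), the highest step of the 111 analytes. CD14 rose by 1.21 (standard error 0.35, adjusted p = 0.0087) and C1q R1 by 0.73 (standard error 0.11, adjusted p = 3.0e-05). These 3 of 5 were called on both scales, on which 39.6% and 34.2% of the analytes rose. The CD14 call was lost with the methods' t-test (adjusted p = 0.10), with quantile normalization (adjusted p = 0.11), and without AP 0.5 h replicate 2 (adjusted p = 0.11) or AP 2 h replicate 1 (adjusted p = 0.066). CD160 and TIM-1 stepped by -0.15 (adjusted p = 0.79) and -0.14 (adjusted p = 0.81). From 2 to 16 h RAGE was at least 32.8-fold lower (adjusted p = 1.9e-09, at least 24.6-fold on the reference scale), CD14 at least 3.29-fold lower (adjusted p = 2.2e-05, at least 2.47-fold) and CD160 at least 1.34-fold lower (adjusted p = 0.0027, at least 1.00-fold). These p-values test the fitted limma steps, which use the AP 16 h values below the control, and not the bounds. For CD160 the bound of 1.00-fold on the reference scale shows no fall. The step of C1q R1 was -1.71 (standard error 0.11, adjusted p = 5.4e-10), and for TIM-1 the bound was under 1. Of all analytes 55.0% fell in this step, or 39.6% on the reference scale.

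Within NP, RAGE, CD14 and C1q R1 moved the opposite way. RAGE fell from 0.5 to 2 h, with a step of -5.82 (standard error 0.39, adjusted p = 1.2e-09), the lowest of the 111. Its NP 2 h samples were at 1.14 and 8.33 times the Negative Control. C1q R1 (-2.20, adjusted p = 6.5e-11), CD14 (at least 6.20-fold, or 3.35-fold on the reference scale, adjusted p = 1.6e-06) and CD160 (at least 5.69-fold, or 3.07-fold, adjusted p = 1.7e-07) fell as well. These 4 of 5 were called lower on both scales, on which 91.0% and 51.4% of the analytes fell. TIM-1 stepped by 0.29 (standard error 0.37, adjusted p = 0.45), and by 1.18 on the reference scale, where the rise passed the test (adjusted p = 0.011) and 20.7% of the analytes rose, against 2.7% on the normalized scale. From 2 to 16 h C1q R1 rose by 0.48 (standard error 0.11, adjusted p = 0.00097), CD14 was at least 2.28-fold higher (adjusted p = 0.0033, at least 2.97-fold on the reference scale) and CD160 at least 2.97-fold higher (adjusted p = 1.3e-05, at least 3.88-fold). At NP 16 h CD160 was still only 1.23 and 1.61 times the Negative Control. These 3 of 5 stand beside 37.8% of all analytes, and on the reference scale 4 of 5 stand beside 58.6%. RAGE, the fourth there, stepped by 0.82 (adjusted p = 0.080) on the normalized scale and by 1.20 on the reference scale (adjusted p = 0.011), and TIM-1 by 0.03 (adjusted p = 0.95). For CD14 and CD160 the p-values of both NP steps test the fitted limma steps, not the bounds.

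Against AP 0 h the 2 scales gave opposite pictures for most values, since the Reference Spots of that group were the brightest. Of 30 combinations of a receptor and a later group, 3 were called higher and 22 lower on the normalized scale, beside 11.0% and 68.9% of all analytes, but 22 higher and 2 lower on the reference scale, beside 81.5% and 4.95%. Without the 4 combinations that rest on AP 16 h values below the control, the counts were 3 and 18 of 26, and 19 and 2 of 26. Higher on both scales were RAGE at AP 2 h (8.06 ± 0.226 times the 0 h mean on the normalized and 38.8 ± 1.09 times on the reference scale), RAGE at NP 0.5 h (6.68 ± 0.213 and 25.1 ± 0.801) and CD14 at AP 2 h (1.95 ± 0.236 and 9.41 ± 1.14). Lower on both scales were C1q R1 at NP 2 h (0.0817 ± 0.00166 and 0.567 ± 0.0116, all SD, n = 2) and CD160 at NP 2 h, which as a bound was at least 7.51-fold lower on the normalized and at least 1.08-fold lower on the reference scale.

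**Figure D4:**
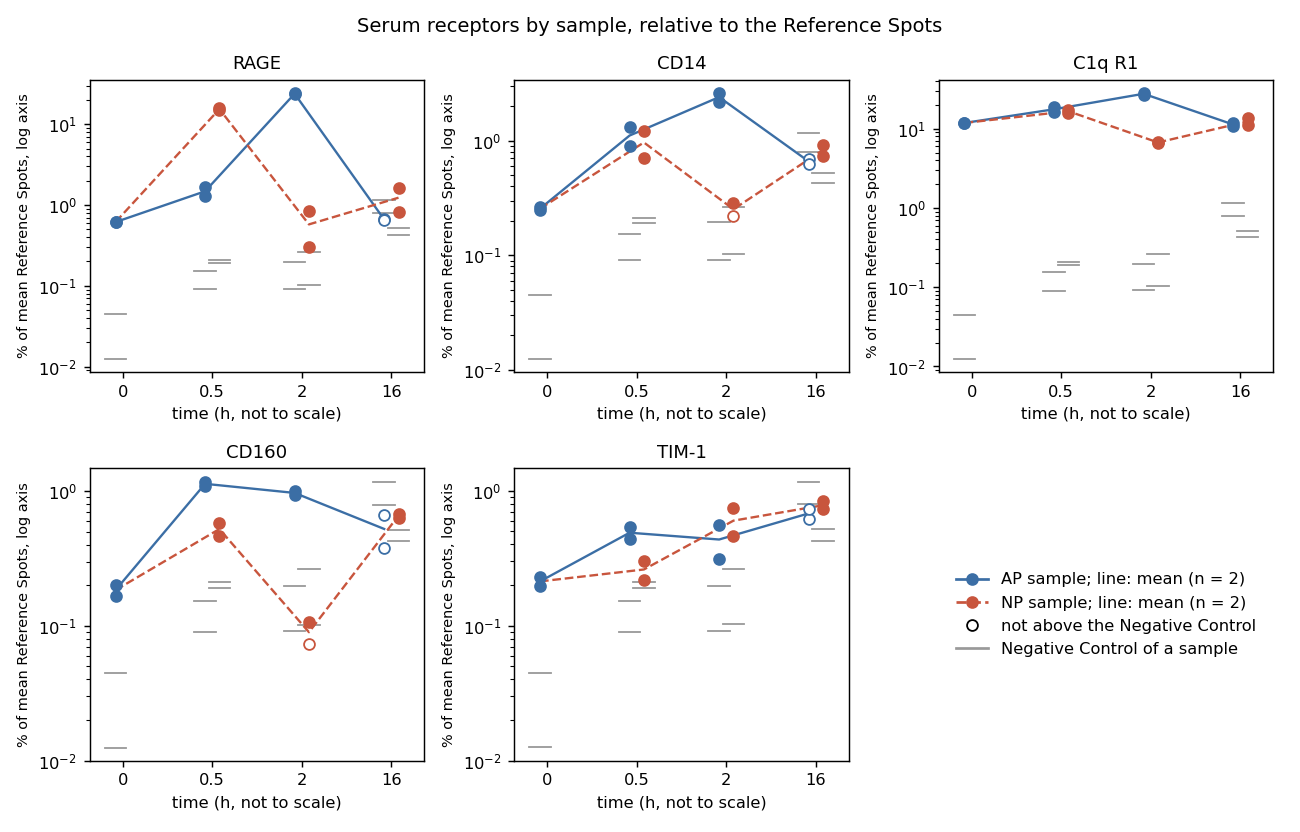
The receptors as a percent of the mean Reference Spots of each sample (log axis) against time in hours (not to scale), with the symbols of the plot of normalized intensity. On this scale RAGE reached 15.4% at NP 0.5 h and 23.9% at AP 2 h from 0.615% at AP 0 h, and C1q R1 at NP 2 h (6.70%) lay below its 0 h level (11.8%).

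The patterns over the 7 group means on the reference scale were set side by side as a description, in which groups share the brightness of their membranes. Pearson's r between C1q R1 and CD14 was 0.89, between CD14 and CD160 0.91, between C1q R1 and CD160 0.83, and between RAGE and C1q R1 0.83, over 7 groups. Between RAGE and CD14 it was lower, at 0.79, and between RAGE and CD160 lower still, at 0.56. The median r with all analytes was 0.56 for CD14, 0.51 for CD160, 0.37 for RAGE and 0.34 for C1q R1. The group means include AP 16 h and NP 2 h, where CD14 and CD160 lay at or below the Negative Control in part or all of the samples. For TIM-1 r ran from -0.34 (RAGE) to 0.16 (CD160), with -0.28 for C1q R1, which became 0.56 on the normalized scale. The analytes most like RAGE were IL-4, a type 2 cytokine (0.91), DKK-1, an inhibitor of Wnt signalling (0.88), and ICAM-1 (0.87). ICAM-1 is an adhesion receptor to which leukocytes bind, and it is itself shed. Most like CD14 were the membrane-bound chemokine CX3CL1 (0.98), complement C5 (0.95) and adiponectin (0.94). C1q R1 was nearest to adiponectin (0.90), CD14 (0.89) and IL-12p40 (0.88), and CD160 to adiponectin (0.95), Angiopoietin-2 (0.95) and CD14 (0.91). TIM-1 was nearest to Proliferin (0.95), VEGF (0.92) and MMP-3 (0.90). Of these 15 neighbours, 5 were kept on the normalized scale and 8 with Spearman's rho.

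A chosen list of 12 other membrane proteins that are shed into serum gave a background for the receptors. Of these 12, 8 were higher in NP at 0.5 h and 0 lower, with a median difference of 0.51 against 0.42 for all analytes. On the reference scale 3 were higher and 0 lower (0.07 against -0.02). Of all analytes, 44.1% and 12.6% were higher on the 2 scales. ICAM-1 was highest among them, at 0.90 (adjusted p = 1.1e-06), below the 3.83 of RAGE. At 2 h all 12 were lower in NP, with a median of -1.39 against -1.23, and on the reference scale 10 were lower and 1 higher (-0.87 against -0.70), beside 86.5% and 63.1% of all analytes lower. The lowest were Coagulation Factor III, the tissue factor that starts clotting, at -4.76 (adjusted p = 8.0e-11), CX3CL1 at -3.05 (adjusted p = 4.3e-07) and Endoglin, an endothelial receptor for TGF-beta family ligands, at -2.32 (adjusted p = 1.1e-09). At 16 h the list gave 2 higher and 5 lower, median -0.33, or 6 higher and 1 lower, median 0.16, on the reference scale, beside 8.11% and 52.3%, and 20.7% and 17.1%, of all analytes. Only 9 of the 12 exceeded the control in both AP 16 h samples. Coagulation Factor III, called higher on both scales, and CD40, called higher on the reference scale, did so in 1 of 2 AP samples. P-Selectin, IL-12p40, CXCL10, Cystatin C and Lipocalin-2 each stand in more than 1 of the lists described here.

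The mediators that RAGE and CD14 with TLR4 are known to induce through NF-kappaB were read from a list of 12. At 0.5 h, when RAGE was high in NP, 2 were higher and 0 lower (median 0.48), and 0 higher and 1 lower on the reference scale (median 0.04), against 44.1% of all analytes higher and 21.6% lower on these scales. At 2 h 11 were lower and 1 higher in NP (median -1.71), and 8 lower and 1 higher on the reference scale (median -1.18), near the 86.5% and 63.1% of all analytes that were lower. The one that was higher was IL-6, an inducer of the acute phase response, named after its values were seen, at 1.55 (adjusted p = 0.0054) and 2.07 on the reference scale (adjusted p = 0.00093), above the control in all 4 samples. IL-12p40 stood at -2.94 (adjusted p = 6.8e-08), and CCL5 and CXCL10, each above the control in 1 of 2 NP samples, at -2.81 (adjusted p = 0.00037) and -2.74 (adjusted p = 5.1e-06). At NP 2 h only 6 of the 12 mediators exceeded the control in both samples, and CCL2 did so in neither. Part of the lower calls thus rest on values at the level of the control. At 16 h only 3 of the 12 exceeded the control in both AP samples, and 6 were called lower and 0 higher (median -0.88), or 1 and 0 on the reference scale (median -0.38), beside 52.3% and 17.1% of all analytes lower. Of these 6, IL-10 and CXCL10 exceeded the control in no NP or AP sample and IL-1beta in 1 of 4, and the call on the reference scale was CXCL10.

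Of 3 kidney markers read beside TIM-1, the filtration marker Cystatin C and the tubule proteins Osteopontin and Lipocalin-2, all 3 were lower in NP at 2 h on both scales, with differences of -1.09, -0.80 and -1.38 (adjusted p = 2.9e-09, 4.8e-09 and 0.0022), whereas TIM-1 stood at -0.04, the median analyte at -1.23, and 86.5% and 63.1% of all analytes were lower on the 2 scales. At 0.5 h 2 of 3 were higher on the normalized and 0 on the reference scale, beside 44.1% and 12.6% of all analytes, and at 16 h 2 of 3 were lower on the first and 2 higher on the second, beside 52.3% and 20.7%, with Lipocalin-2 above the control in neither AP sample. Of 7 cytokines of natural killer and T cells read beside CD160, 2 were higher in NP at 0.5 h and 0 lower (median 0.57), or 1 and 0 on the reference scale, when CD160 was at -0.69 and 44.1% and 12.6% of all analytes were higher. At 2 h all 7 were lower on the normalized and 6 on the reference scale (median -2.74 and -2.22), beside the 86.5% and 63.1% of all analytes, among them CXCL9 at -3.70 (adjusted p = 7.8e-08) and CXCL11 at -3.56 (adjusted p = 5.2e-07), and 1 of the 7 exceeded the control in both NP samples. At 16 h 4 were lower and 0 higher, or 1 and 0 on the reference scale, beside 52.3% and 17.1% of all analytes lower. Of these 4, IL-2 and CXCL10 exceeded the control in no NP or AP sample, CXCL10 being the call on the reference scale, and 2 of the 7 cytokines exceeded it in both AP samples. Neutrophil granule proteins, myeloperoxidase, MMP-9 and Lipocalin-2, had 1 of 3 higher at 0.5 h, 3 of 3 lower at 2 h and 1 of 3 higher at 16 h, beside 44.1% higher, 86.5% lower and 8.11% higher of all analytes. On the reference scale 1 of 3 was lower at 0.5 h, 2 of 3 were lower at 2 h and 3 of 3 higher at 16 h, beside 21.6%, 63.1% and 20.7%. They had a summed level of 46.8 to 49.7% of the Reference Spots at AP 2 h and 33.0 to 36.3% at NP 2 h. Their part in the receptor differences was not tested.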

How the data were processed

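Blood stood for 0.5 to 2 h before it was spun, and the serum was put on the mouse XL cytokine array. The authors measured each spot with ImageJ and deposited, per analyte and sample, the raw intensity and a normalized intensity, in which the brighter sample of a group is scaled down so that its mean Reference Spots match those of its partner. Whether a background was subtracted is not given in the sources used here. The deposited folds over AP 0 h, the authors' own comparison, were not used. All 42 columns of sample values were mapped, and 111 of 111 analytes matched a gene symbol. The number of membranes limits the precision.

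Log2 of the normalized intensity was fitted with limma 3.58.1 (lmFit, eBayes with trend) in R 4.3.3 over 14 samples of 7 groups, without a block, with no low filter and no offset. p-values were adjusted over the 111 analytes of a comparison. Plots used matplotlib 3.10.9, and tables used numpy 2.4.6 and pandas 2.3.3 under Python 3.11.15. As alternatives the test was run on raw intensities, on the reference scale, with median scaling, quantile normalization, a plane through the 3 Reference Spot positions of a membrane, subtraction of the Negative Control (with a floor at 0.1 times the control for 157 values), an offset of 1% of the Reference Spots, no dim analytes (lowest 25%), no trend in limma, the replicate block, only the groups compared, a fit without AP 0 h, each replicate left out, and the methods' t-test. Leaving out replicates on the reference scale was added after seeing the data. The fit was also tested on simulated data for the 2 h comparison, in which 30 of 111 analytes had a log2 change of 1. It recovered 73.5% of them with 1.25 false calls per simulation (20 simulations). In the measured 2 h comparison 86.5% of the analytes were called lower and 3.6% higher. A change of most analytes was not simulated, so these rates do not give the error rate of the measured comparisons.

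The receptors and lists were chosen with earlier results of these data known. Named analytes are the 5 receptors, the 3 analytes nearest to each, and up to 3 of each list with the largest called difference at the time described; the remaining members of the short marker lists were named only to define them. A receptor above the Negative Control in neither sample of a group was given a bound, and the same bound was added, after seeing the data, for CD14 and CD160 at NP 2 h, above it in 1 of 2 samples.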

Additional observations from a re-analysis of the deposited data

Results flagged for a closer look

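The difference between NP and AP changed between times by more than the replicate spread for 4 receptors, as tested by the change itself (limma over 111 analytes). From 0.5 to 2 h this change was also called lower for 84.7% of all analytes, or 57.7% on the reference scale. The count of receptors is near this background. From 0.5 to 2 h the change was -9.92 on the log2 scale for RAGE, -3.99 for CD14, -2.92 for C1q R1 and -3.30 for CD160, where CD14 and CD160 exceeded the Negative Control in 1 of 2 samples of NP 2 h. The RAGE samples of NP 2 h were at 1.14 and 8.33 times the Negative Control. RAGE kept its call under all 20 alternatives run for it, with changes from -11.6 to -7.05. The calls of CD14 (-1.12, adjusted p = 0.099), C1q R1 (-0.053, adjusted p = 0.88) and CD160 (-0.43, adjusted p = 0.56) were lost with median scaling, and that of CD160 also with quantile normalization (-1.31, adjusted p = 0.068). From 2 to 16 h the change of C1q R1 was 2.19, and with median scaling it turned to -0.23 (adjusted p = 0.51). Groups of 2 samples allow no test for an outlying sample.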

How the results depend on the processing

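RAGE at 0.5 and 2 h kept its direction and call under all 17 alternatives (2.38 to 4.01 and -7.69 to -4.21), as did CD14 and C1q R1 at 2 h, and CD160 at 2 h under the 16 that kept it. Leaving out dim analytes, the trend, AP 0 h or the groups not compared, or adding the block, cannot change a difference between NP and AP. Those alternatives bear only on the call. Where other results moved, the cause was not tested. On the reference scale, with median scaling, quantile normalization and the plane in this order, CD14 at 0.5 h (0.21) turned to -0.23, -0.79, -0.18 and -0.35. C1q R1 at 0.5 h (0.36) turned to -0.080, -0.64 (called lower, adjusted p = 0.021) and -0.077 under the first 3 and lost its call at 0.039 with the plane. CD14 was called with the offset (0.33), and C1q R1 also lost it with the methods' t-test (0.35). CD160 at 0.5 h was called on the reference scale (-1.12), with median scaling (-1.68) and with the plane (-0.89). TIM-1 at 0.5 h was called with median scaling (-1.48), the plane (-1.99) and the Negative Control subtracted (-2.42) and turned with the offset (0.20). TIM-1 at 2 h turned on the raw intensities (0.031), the reference scale (0.48), with median scaling (1.83) and quantile normalization (1.25), and was called lower with the offset (-0.37). C1q R1 at 16 h turned on the reference scale (0.12) and with the plane (0.27) and lost its call with quantile normalization (-0.21) and the t-test (-0.37).

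With each replicate left out, differences ran from -0.19 to 0.60 for CD14 at 0.5 h, from 0.26 to 0.45 for C1q R1 at 0.5 h (not called without AP replicate 1 or NP replicate 1), from -0.46 to 0.37 for TIM-1 at 2 h and from -0.52 to -0.23 for C1q R1 at 16 h (not called without AP replicate 1 or NP replicate 2). On the reference scale they ran from -0.62 to 0.16 for CD14 and from -0.17 to 0.015 for C1q R1 at 0.5 h, with turns at 0.035 and 0.16 for CD14, and from -0.028 to 0.27 for C1q R1 at 16 h. With median scaling C1q R1 turned in the AP steps to 2 h (-0.45) and to 16 h (0.61) and in its change from 2 to 16 h (-0.23). TIM-1 turned with the offset in the NP step to 2 h (-0.55, and from -0.048 to 0.64 with a replicate left out) and in its change to 2 h (-0.57).

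Receptors called higher than AP 0 h went from 3 to 22 on the reference scale and 21 with the plane. Those called lower went from 22 to 2 and 1, and to 14 with median scaling, 12 with quantile normalization and 13 without the lowest 25% of the analytes, which held CD160 and TIM-1. Analytes called between NP and AP went from 55 to 31 (quantile) and 21 (t-test) at 0.5 h, from 100 to 63 (median) and 60 (quantile) at 2 h, and from 67 to 42 (reference) and 39 (plane) at 16 h. Of 15 nearest analytes, 5 were kept on the normalized scale and 8 with Spearman's rho. Replicate numbers were not taken to pair the samples, as no source used here ties them to an experiment or an animal. Deviations correlated from -0.18 to 0.50 over 21 pairs of groups, with a median of 0.18 and 14 of them over 0.1. These values do not settle whether the samples are paired. With the replicate block RAGE was at 3.83 and -6.09 at 0.5 and 2 h, and no receptor's call between NP and AP changed.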
